A study of Mus musculus with 2 samples.

Results

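The colonic epithelium of mice that lack Mettl14 in villin-expressing cells was profiled by 10x Genomics single-cell RNA sequencing, and the knockout barcodes described here are those with few or no transcripts of 3 genes that were otherwise high in that library. They were chosen from the Mettl14_cKO library by a rule on measured values. A barcode needed 10000 or more UMIs (unique molecular identifiers, each a counted transcript), 500 or more genes, under 25% mitochondrial UMIs, at least 1 Epcam UMI, no Ptprc UMI, at most 1 UMI of Chga and Chgb summed, and at most 2 UMIs of Slpi, Serpina10 and Akr1c21 summed. This gave 1095 low-sum knockout barcodes of the 9225 in the library and of 19406 in both libraries. They were 39.96% of the 2740 knockout epithelial barcodes of that depth (exact 95% binomial interval 38.12 to 41.83). They are set against the other 1645 of these, called remaining knockout barcodes, and against 4512 control barcodes, which passed every condition except that on the 3 genes in the control library.

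Each library held isolated colonic crypt cells pooled from 3 C57BL/6 mice, 4 weeks of age. The knockout genotype was M14(f/f);Villin-Cre, a floxed Mettl14 allele with a Cre transgene driven by the villin promoter, which is active in intestinal epithelium and not in immune or stromal cells. The control genotype was M14(f/f), the floxed allele without Cre. M14 in the labels was taken to mean Mettl14. With 1 library per genotype no test between genotypes was possible, and barcodes of 1 library are not replicates, so all comparisons are descriptions and no p-value is given. Intervals on CPM (a gene's UMIs as a share of the summed UMIs of a group, times 1000000) are exact 95% Poisson intervals, those on shares are exact 95% binomial intervals, and both cover counting error only.

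Mettl14 is the partner of Mettl3 in the complex that writes N6-methyladenosine on messenger RNA, a mark read by proteins that affect RNA decay and translation. The colonic crypt is renewed from Lgr5-expressing stem cells at its base, whose daughters divide and then mature into mucus-secreting goblet cells or absorptive colonocytes. Slpi encodes a secreted inhibitor of serine proteases of leukocytes, Serpina10 encodes the protein Z-dependent protease inhibitor of coagulation, and Akr1c21 encodes an aldo-keto reductase that acts on steroids.

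The choosing values are given as a description only. Slpi was at 10.1 CPM in low-sum barcodes, 1592 CPM in remaining knockout barcodes and 10.6 CPM in control barcodes. Serpina10 was at 26.2 CPM in low-sum barcodes, 139 CPM in remaining knockout barcodes and 1.10 CPM in control barcodes. Akr1c21 was at 5.20 CPM in low-sum barcodes, 325 CPM in remaining knockout barcodes and 0.745 CPM in control barcodes. The sum of the 3 genes had no gap at the threshold: 422 knockout barcodes had a sum of 0, 381 a sum of 1 and 292 a sum of 2, beside 236 with a sum of 3 and 174 with a sum of 4. In the control library 91.3% of barcodes had a sum of 0 and 93 (2.06%) had more than 2. Remaining knockout barcodes did not share 1 pattern of the 3 genes. Of them, 672 (40.9%) had 3 or more UMIs of Serpina10 alone, 271 of Slpi alone, 305 of Akr1c21 alone and 272 of more than 1 of the genes.

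**Figure D1:**
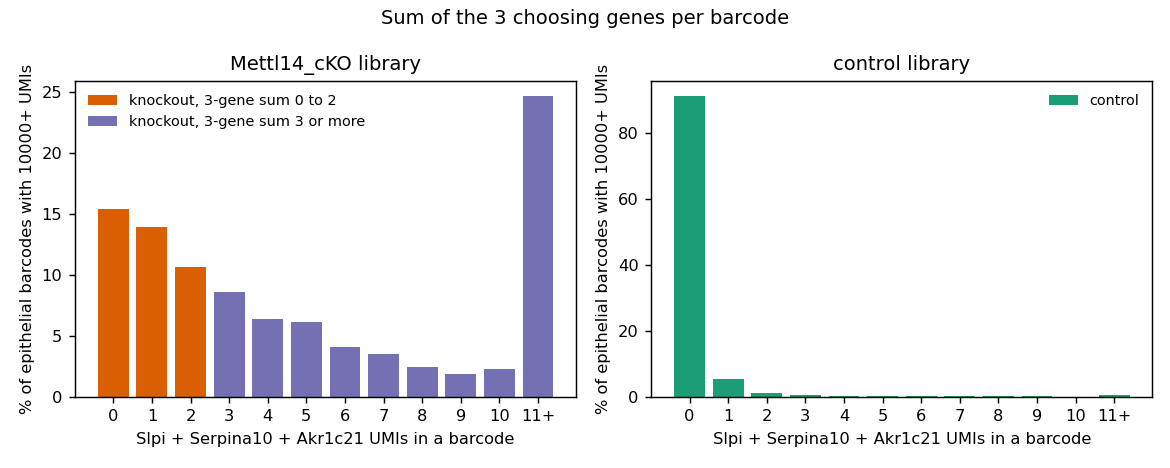
Share of epithelial barcodes with 10000 or more UMIs (y axis, %) at each summed UMI count of Slpi, Serpina10 and Akr1c21 (x axis), in the Mettl14_cKO library at left and the control library at right, with different y scales. Orange bars are the 1095 low-sum barcodes and purple bars the 1645 remaining knockout barcodes; the bars fall without a gap from 0 to 3, and 91.3% of control barcodes stand at 0.

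Depth differed between the groups, and the sum of 3 counts depends on it. The median was 18154 UMIs in low-sum barcodes, 22312 in remaining knockout barcodes and 15783 in control barcodes, and median mitochondrial shares were 3.1%, 2.99% and 3.23% in the same order. When each barcode was thinned to 10000 UMIs before the 3 genes were summed, 1640 knockout barcodes passed the rule, so at equal depth the rule takes in more of the library. Free RNA can place UMIs in cells that do not make them. In 126 knockout T cells (Ptprc and Cd3 UMIs, no Epcam; median 2136 UMIs) Serpina10 and Akr1c21 had 2 UMIs each, or 5.52 CPM, and Slpi had 218 UMIs, of which 209 were in 1 barcode; without that barcode Slpi was at 25.2 CPM. These values stand beside the low-sum levels above, which the rule itself capped, and nothing is read from them.

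Epithelial markers were at similar levels in the knockout groups and lower in sum than in control barcodes. Summed, 8 markers were at 6570 CPM in low-sum, 6200 CPM in remaining knockout and 10125 CPM in control barcodes. Of these markers the rule used only Epcam. Krt8, Krt18, Krt19, Cdh1, Vil1, Cdx1 and Cdx2 each differed less than 2-fold between low-sum barcodes and either other group; Krt8, a keratin of simple epithelia, was at 1992 CPM in low-sum barcodes, 1824 CPM in remaining knockout barcodes and 3357 CPM in control barcodes. Against the epithelial label stood 7 low-sum barcodes (0.639%) with 111 to 3748 UMIs of 8 B and plasma cell markers and only 1 to 4 Epcam UMIs, against a median of 37 Epcam UMIs in the whole group. Another 2 such barcodes were among the remaining knockout barcodes, and none was in the control group. These 7 barcodes held 99.2% of the Jchain UMIs of the low-sum barcodes. No UMI of the fibroblast markers was seen in low-sum barcodes after thinning, and 15 barcodes (1.37%) had a T or NK cell marker UMI. Myeloid marker UMIs were seen in 195 low-sum barcodes (17.8%), 358 remaining knockout barcodes (21.8%) and 323 control barcodes (7.16%). Their part in the results was not tested. The doublet score of Scrublet was 0.25 or more in 1 low-sum barcode, 12 remaining knockout barcodes and 63 control barcodes.

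Sex-linked transcripts, which the rule did not use, placed the low-sum barcodes with the knockout library. Xist, the RNA that coats the inactive X chromosome of female cells, was found in 1046 low-sum barcodes (95.5%, 94.1 to 96.7), in 96.3% of remaining knockout barcodes and in 4 control barcodes (0.0887%). A UMI of the Y-linked genes Ddx3y, Eif2s3y, Kdm5d or Uty was found in 2 low-sum barcodes (0.183%), in no remaining knockout barcode, which allows a share of up to 0.224%, and in 80.7% of control barcodes. Of the 2 low-sum barcodes with Y-linked UMIs, 1 had 5 of them and no Xist UMI, and the other had 1 beside 6 Xist UMIs. Both had knockout-high UMIs (10 and 11, Spink1 aside) and no gasdermin C UMI. Low-sum barcodes shared 4 barcode sequences with the control library, remaining knockout barcodes shared 5, and the libraries shared 33 in all. Because the pools differ in sex-linked transcripts as well as in genotype, sex and genotype cannot be told apart in any comparison with control.

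At genes that separated the libraries, the low-sum barcodes lay nearer to the remaining knockout than to the control level, so they are called here by their rule. Genes were compared where a group of the pair had at least 50 CPM and there were 10 UMIs, and a gene was counted when its CPM, each plus 1, differed 2-fold or more. Of 2466 genes, 10 were higher (0.406%) and 11 lower (0.446%) in low-sum than in remaining knockout barcodes. Against control barcodes, 128 of 2688 genes were higher (4.76%) and 151 lower (5.62%). For remaining knockout barcodes against control, 196 of 2715 genes were higher (7.22%) and 180 lower (6.63%).

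The position of the low-sum barcodes between the other groups was measured gene by gene, over the 376 genes at least 2-fold apart between remaining knockout and control barcodes. Each gene's place is its log2 difference from control in low-sum barcodes divided by that in remaining knockout barcodes, so 0 is the control level and 1 the remaining knockout level. The median place was 0.86, with quartiles of 0.76 and 0.92. A place over 0.75 was found for 291 genes (77.4%), a place between 0.25 and 0.75 for 84, and a place under 0.25 for 1, the enteroendocrine hormone gene Sct (-0.17). Genes higher in the remaining knockout barcodes had a median place of 0.87 and genes lower there a median of 0.82. Both differences use the same control barcodes, so the direct comparison of the knockout groups above is the one free of that sharing.

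Place followed the 3-gene sum within the low-sum barcodes. The 422 barcodes with a sum of 0 had a median place of 0.72, those with a sum of 1 had 0.92, and those with a sum of 2 had 0.97. Just outside the threshold, barcodes with a sum of 3 had a median place of 1.04, measured against the remaining knockout barcodes without them. Barcodes on either side of the threshold thus lay near each other and near the remaining knockout level, and the lowest places were at a sum of 0.

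**Figure D2:**
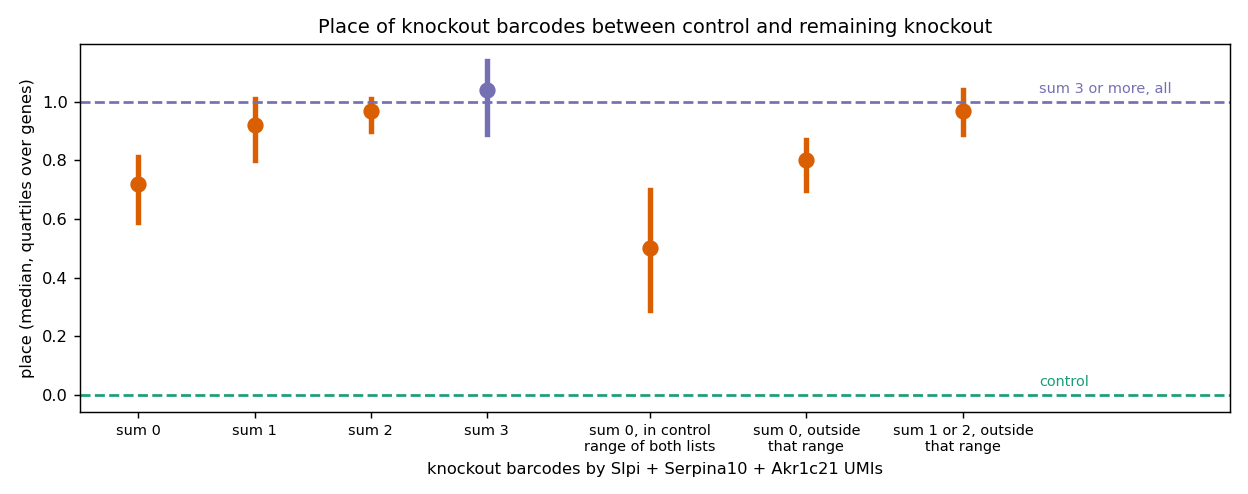
Median (points) and quartiles (bars) of place over genes, where 0 is the control level and 1 the level of all remaining knockout barcodes (dashed lines). For a sum of 3, 1 is the level of the remaining knockout barcodes without those of that sum. The 4 points at left are knockout barcodes by 3-gene sum (376 genes; medians 0.72, 0.92, 0.97 and 1.04), and the 3 at right divide the low-sum barcodes by whether they also fell in the control range of 2 gene lists (358 genes; medians 0.50, 0.80 and 0.97).

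Genes that mark the knockout library other than the choosing genes were present in low-sum barcodes. All 12 genes of a knockout-high list, drawn from earlier results of these data, were at least 2-fold higher in low-sum than in control barcodes, and 3 of the 12 were at least 2-fold lower in low-sum than in remaining knockout barcodes. Among all genes with 10 UMIs, 5.30% were 2-fold higher than control and 0.556% were 2-fold lower than remaining knockout barcodes. Because the list was drawn from the same libraries, its direction against control is no independent evidence.

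Ly6g, a Ly6 family gene best known as a mouse neutrophil surface marker, was at 109 CPM (104.8 to 113.3) in low-sum barcodes, 126 CPM in remaining knockout barcodes and 1.03 CPM in control barcodes. Lrg1, which encodes a secreted leucine-rich glycoprotein, was at 63.2 CPM in low-sum barcodes, 62.1 CPM in remaining knockout barcodes and 2.41 CPM in control barcodes. The summed levels of these genes in the knockout groups lay close together and far from control. Ly6g was unevenly spread: 10 low-sum barcodes held 42.8% of its UMIs there. After thinning, a Ly6g UMI was found in 12.05% of low-sum barcodes, 12.6% of remaining knockout barcodes and 0.754% of control barcodes. Ubd, a ubiquitin-like modifier, was at 66.2 CPM in low-sum barcodes, 111 CPM in remaining knockout barcodes and 0.687 CPM in control barcodes. Msln (mesothelin) was at 47.4 CPM in low-sum barcodes and 86.7 CPM in remaining knockout barcodes, and Gp2, a glycoprotein that binds bacteria on M cells, was at 40.6 CPM in low-sum barcodes and 70.3 CPM in remaining knockout barcodes. Neither Msln nor Gp2 had a UMI in control barcodes. After thinning, Msln was found in 22.7% of low-sum barcodes and 29.4% of remaining knockout barcodes, against 1 of 126 knockout T cells (0.794%, unthinned).

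The 3 knockout-high genes with 2-fold lower levels in low-sum than in remaining knockout barcodes were Spink1, Il4i1 and Ccl25. Spink1, a secreted trypsin inhibitor, was at 3580 CPM in low-sum barcodes, 9120 CPM in remaining knockout barcodes and 215 CPM in control barcodes. Spink1 was at 342 CPM in 125 knockout T cells without the Slpi-rich barcode, and the part of free RNA in its low-sum level was not tested. Il4i1, a secreted amino acid oxidase, was at 69.2 CPM in low-sum barcodes, 208 CPM in remaining knockout barcodes and 1.0 CPM in control barcodes. Ccl25, a chemokine for lymphocytes that home to the gut, was at 42.2 CPM in low-sum barcodes, 90.0 CPM in remaining knockout barcodes and 10.4 CPM in control barcodes. Each of these stood between the groups, nearer to the remaining knockout level on the log scale (places of 0.75, 0.77 and 0.64).

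Genes that mark the control library were low in low-sum barcodes. Of 14 genes of a control-high list, also drawn from earlier results of these data, 13 were at least 2-fold lower in low-sum than in control barcodes and 5 were at least 2-fold higher than in remaining knockout barcodes. Among all genes with 10 UMIs, 3.54% were 2-fold lower than control and 0.563% were 2-fold higher than remaining knockout barcodes. The gasdermin C genes, which encode pore-forming proteins cut during inflammatory cell death, were measured for 3 of 4 members. Gsdmc4 was at 18.5 CPM (16.8 to 20.3) in low-sum barcodes, 10.6 CPM in remaining knockout barcodes and 263 CPM in control barcodes. Gsdmc2 was at 16.4 CPM in low-sum barcodes, 8.84 CPM in remaining knockout barcodes and 81.3 CPM in control barcodes. Gsdmc3 was at 8.24 CPM in low-sum barcodes, 5.87 CPM in remaining knockout barcodes and 21.5 CPM in control barcodes. All 3 were below control in both knockout groups, and these paralogs lie close in sequence, so the authors' counting may have split reads between them. In the low-sum group 10 barcodes held 53.3% of the Gsdmc4 UMIs. A Gsdmc4 UMI was kept after thinning by 70 low-sum barcodes (6.39%), 70 remaining knockout barcodes (4.26%) and 1683 control barcodes (37.3%). Without thinning it was in none of 126 knockout T cells and in 4 of 70 control T cells (5.71%; medians of 2136 and 1613 UMIs).

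The other control-high genes followed the same order with exceptions. Sult1a1, a sulfotransferase for phenols, was at 23.3 CPM in low-sum barcodes, 10.3 CPM in remaining knockout barcodes and 233 CPM in control barcodes. Hao2, a peroxisomal hydroxy acid oxidase, was at 26.0 CPM in low-sum barcodes, 10.1 CPM in remaining knockout barcodes and 278 CPM in control barcodes. Otc, the urea cycle enzyme ornithine transcarbamylase, was at 3.99 CPM in low-sum barcodes, 0.207 CPM in remaining knockout barcodes and 25.2 CPM in control barcodes. Mptx1, a pentraxin of mouse intestine, went the other way: it was at 6.61 CPM in low-sum barcodes, 42.7 CPM in remaining knockout barcodes and 1053 CPM in control barcodes. The 1 gene of the list less than 2-fold below control was Pclaf, which binds the replication clamp PCNA, with 85.0 CPM in low-sum barcodes, 47.6 CPM in remaining knockout barcodes and 144.5 CPM in control barcodes. Part of these low-sum levels came from a subset of 173 barcodes described below, chosen partly on this list. In 915 other low-sum barcodes Sult1a1 was at 10.45 CPM, Hao2 at 17.7 CPM, Otc at 1.58 CPM and Gsdmc4 at 12.8 CPM. Mettl14 itself was at 5.84 CPM (4.90 to 6.91) in low-sum barcodes, 4.75 CPM in remaining knockout barcodes and 4.79 CPM in control barcodes. Which part of the Mettl14 transcript its UMIs came from was not analysed here, so its level does not check the deletion.

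**Figure D3:**
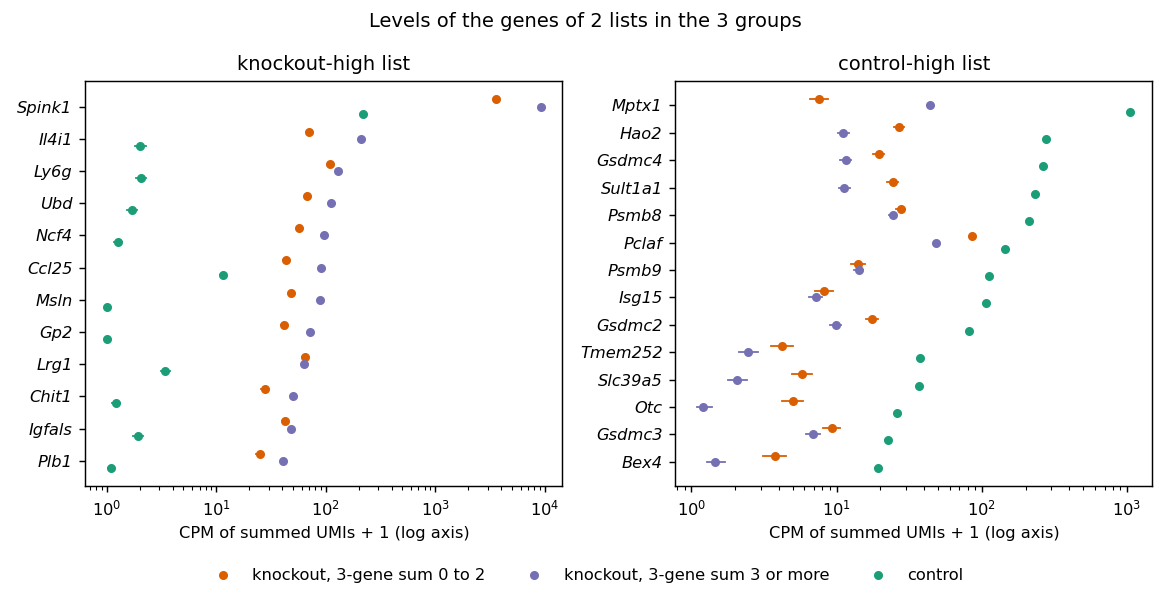
CPM of summed UMIs plus 1 (x axis, log scale; lines are exact 95% Poisson intervals) for the 12 knockout-high genes at left and 14 control-high genes at right, in low-sum (orange), remaining knockout (purple) and control (green) barcodes. At left the orange points stand close to the purple ones and right of the green ones, as for Ly6g (109, 126 and 1.03 CPM); at right they stand left of the green ones, as for Gsdmc4 (18.5, 10.6 and 263 CPM).

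Beyond the choosing genes, 10 genes were higher and 11 lower in low-sum than in remaining knockout barcodes, and they are described here by name. Car1, the carbonic anhydrase of colonocytes, was at 2921 CPM in low-sum barcodes, 1010 CPM in remaining knockout barcodes and 16767 CPM in control barcodes. Cyp2c55, a cytochrome P450 of mouse colon, was at 135 CPM in low-sum barcodes, 36.9 CPM in remaining knockout barcodes and 527 CPM in control barcodes. The aldo-keto reductase gene Akr1c19, a relative of the choosing gene Akr1c21, was at 116 CPM in low-sum barcodes, 52.4 CPM in remaining knockout barcodes and 248 CPM in control barcodes. For these genes the low-sum level was between the other groups, with places of 0.62, 0.51 and 0.49. The metallothionein gene Mt3, the fatty acid carrier gene Fabp2, the glutathione transferase gene Mgst1 and the gene 1810065E05Rik were also higher by at least 2-fold and between the groups (places of 0.38, 0.55, 0.41 and 0.45). UMIs of all these genes, from Car1 on, were unevenly spread: 10 low-sum barcodes held between 14.4% (Mgst1) and 34.0% (Car1) of them. After thinning, a Car1 UMI was found in 35.8% of low-sum and 33.7% of remaining knockout barcodes.

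Among the 10 higher genes, the other 3 rested mostly on few barcodes or did not lie between the other groups. Jchain, the joining chain of secreted immunoglobulins, was at 142 CPM in low-sum barcodes and 44.4 CPM in remaining knockout barcodes; without the barcodes rich in B and plasma cell markers it was at 1.21 CPM in low-sum barcodes and 1.45 CPM in remaining knockout barcodes, and 9 genes were higher. Sprr1a, a small proline-rich protein of stressed epithelium, was at 193 CPM in low-sum barcodes, 88.2 CPM in remaining knockout barcodes and 77.7 CPM in control barcodes, and 10 barcodes held 68.9% of its UMIs in the low-sum group. Sct, which encodes secretin, was at 102 CPM in low-sum barcodes, 36.6 CPM in remaining knockout barcodes and 88.1 CPM in control barcodes.

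The 11 lower genes held secreted signals beside Spink1, Il4i1 and Ccl25. Ccl20, the chemokine ligand of CCR6, was at 134 CPM in low-sum barcodes, 419 CPM in remaining knockout barcodes and 25.3 CPM in control barcodes. Clu (clusterin), a secreted chaperone found in regenerating intestinal epithelium, was at 15.2 CPM in low-sum barcodes, 50.9 CPM in remaining knockout barcodes and 3.07 CPM in control barcodes. The fatty acid binding protein gene Fabp5, the centrosome gene Cep63 and the MHC class Ib gene H2-M2 were also at least 2-fold lower, with places of 0.64, 0.57 and 0.81. Another set was lower in low-sum barcodes than in both other groups. Sval1 was at 150 CPM in low-sum barcodes, 964 CPM in remaining knockout barcodes and 1071 CPM in control barcodes. Hoxb13, a homeobox gene of the distal colon, was at 40.3 CPM in low-sum barcodes, 94.7 CPM in remaining knockout barcodes and 88.0 CPM in control barcodes. The chemokine gene Ccl6 was at 202 CPM in low-sum barcodes, 440 CPM in remaining knockout barcodes and 514 CPM in control barcodes.

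Gene lists gave the same picture by function; all lists were chosen with earlier results of these data known. Of 25 interferon-stimulated genes, which respond to viral infection and danger signals, 24 were at least 2-fold lower in low-sum than in control barcodes (median log2 difference -1.84, against 0.01 over all genes with 10 UMIs), and none of 24 measured differed 2-fold from remaining knockout barcodes (median -0.12). Isg15, a ubiquitin-like interferon product, was at 7.21 CPM in low-sum barcodes, 6.20 CPM in remaining knockout barcodes and 106 CPM in control barcodes. Oasl2 was at 1.37 CPM in low-sum barcodes, 1.52 CPM in remaining knockout barcodes and 27.8 CPM in control barcodes. Irf7, the transcription factor that amplifies the interferon response, was at 23.1 CPM in low-sum barcodes, 19.7 CPM in remaining knockout barcodes and 104 CPM in control barcodes. The low-sum barcodes sat at the remaining knockout level for this list, with a median place of 1.05 and all 24 genes with a place over 0.75.

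Genes of MHC class I, which displays peptides to cytotoxic T cells, gave similar counts: 9 of 12 were at least 2-fold lower in low-sum than in control barcodes, beside 3.54% of all genes, and none of 11 measured differed from remaining knockout barcodes. H2-K1 was at 289 CPM in low-sum barcodes, 314 CPM in remaining knockout barcodes and 901 CPM in control barcodes. Psmb8, a subunit of the immunoproteasome that cuts those peptides, was at 26.6 CPM in low-sum barcodes, 23.4 CPM in remaining knockout barcodes and 212 CPM in control barcodes. Psmb8 and the related subunit gene Psmb9 are also in the control-high list. Of 12 immediate-early genes, which respond within minutes to stimulation or tissue handling, 7 were lower than control, beside the same 3.54%, and none differed from remaining knockout barcodes; Atf3 was at 207 CPM in low-sum barcodes, 198 CPM in remaining knockout barcodes and 923 CPM in control barcodes. Among 9 subunits of the m6A writer complexes, Rbm15 was the 1 past 2-fold against control, a share near the 5.30% of all genes that were higher, with 58.0 CPM in low-sum barcodes, 64.7 CPM in remaining knockout barcodes and 14.2 CPM in control barcodes. The m6A readers Ythdf2 and Igf2bp3 were also higher than control among 11 readers and erasers, beside the same 5.30%, and no gene of these lists differed 2-fold between the knockout groups.

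Between the knockout groups, some lists held genes at least 2-fold apart. Of 18 measured detoxification genes, 6 were at least 2-fold higher in low-sum barcodes and none lower, beside 0.563% and 0.556% of all genes. These 6 were Cyp2c55, Akr1c19 and Sult1a1, given above, and Ugt2b5, Aldh1a1 and Ces2e. Ugt2b5, a glucuronosyltransferase, was at 16.9 CPM in low-sum barcodes, 4.35 CPM in remaining knockout barcodes and 59.8 CPM in control barcodes. Against control, 10 of 19 detoxification genes were at least 2-fold lower in low-sum barcodes and 1, Cyp2d34, was higher. Over all genes these shares were 3.54% and 5.30%. Of 8 colonocyte markers, 6 were lower than control, beside the same 3.54%, and 1, Car1, was higher than in remaining knockout barcodes. Of 10 measured distal Hox genes, which mark position along the gut, 3 were lower in low-sum barcodes (Hoxb13, Hoxd13 and Hoxd11). Of 6 measured MHC class II genes, 2 were higher (H2-Aa and H2-DMb1), as were 2 of 8 measured enteroendocrine genes (Sct and Neurog3). Of 12 measured fetal-like genes, Sprr1a was higher and Clu and Cldn10 lower, and of 19 ion and water transport genes 2 were higher (Car1 and Slc9a3) and 2 lower (Atp12a and Best2). Of 13 measured protease inhibitor genes, 2 were lower (Spink1 and Serpina1b). Immune marker lists also differed: 4 of 6 measured B and plasma cell markers were higher in low-sum barcodes, with the 7 barcodes above holding 98.8% of their UMIs, and 2 of 10 myeloid markers were lower. Of 14 stem cell genes, none differed 2-fold between the knockout groups. Against control, 1 was higher (Olfm4) and 1 lower (Lgr5), near the shares of 5.30% and 3.54% over all genes.

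A larger share of low-sum than of remaining knockout barcodes lay in the colonocyte and enteroendocrine marker ranges. Marker UMIs were summed after thinning to 10000 UMIs, and a barcode counted as in range above the 75th percentile of control barcodes, which marks a range and not a cell type. The goblet range held 15.6% of low-sum barcodes (13.5 to 17.9), 18.5% of remaining knockout barcodes and 24.96% of control barcodes. The colonocyte range held 8.77% of low-sum barcodes (7.16 to 10.6), 4.98% of remaining knockout barcodes (3.98 to 6.15) and 24.98% of control barcodes. Any colonocyte marker UMI was found in 55.2% of low-sum, 57.4% of remaining knockout and 99.2% of control barcodes. The enteroendocrine range held 13.2% of low-sum barcodes (11.3 to 15.4), 8.81% of remaining knockout barcodes (7.49 to 10.3) and 15.8% of control barcodes, with Chga and Chgb, which the rule limited, among its 10 markers. The cycling range held 26.6% of low-sum barcodes, 22.7% of remaining knockout barcodes and 23.7% of control barcodes. A tuft cell marker UMI was found in 115 low-sum barcodes, 209 remaining knockout barcodes (12.7%) and 128 control barcodes (2.84%). Marker genes such as Car1 and Muc2 themselves differed between the libraries, so a different share of a cell type and a different level per cell cannot be told apart here.

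The position of the low-sum barcodes was similar within each range. The median place was 0.81 among goblet-range barcodes (171 low-sum), 0.81 among colonocyte-range barcodes (96 low-sum) and 0.82 among cycling-range barcodes (291 low-sum), each measured against remaining knockout and control barcodes of the same range. Within the goblet range, 15 of 2328 genes were higher (0.644%) and 7 lower (0.301%) in low-sum than in remaining knockout barcodes. Against control barcodes of that range, 129 of 2572 genes were higher (5.02%) and 138 lower (5.37%). Lrg1 was at 88.5 CPM in goblet-range low-sum barcodes, 26.2 CPM in remaining knockout barcodes and 5.69 CPM in control barcodes. Within the colonocyte range, 24 of 2317 genes were higher (1.04%) and 39 lower (1.68%) in low-sum than in remaining knockout barcodes, and 199 of 2486 were higher (8%) and 176 lower (7.08%) than in control barcodes. There Ly6g was at 703 CPM in low-sum barcodes, 1196 CPM in remaining knockout barcodes and 2.78 CPM in control barcodes. Slurp1, a secreted Ly6 family protein, was at 71.3 CPM in the same low-sum barcodes and 16.6 CPM in remaining knockout barcodes, with no UMI in control barcodes. Within the cycling range, 5 of 2572 genes were higher (0.194%) and 9 lower (0.35%) in low-sum than in remaining knockout barcodes, and 129 of 2712 were higher (4.76%) and 99 lower (3.65%) than in control barcodes. There Sval1 was at 36.1 CPM in low-sum barcodes, 412 CPM in remaining knockout barcodes and 569 CPM in control barcodes.

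A smaller group within the low-sum barcodes lay nearer to control. It was chosen after the values were seen and is given as a description. Per barcode, thinned to 10000 UMIs, the knockout-high list without Spink1 had a median of 3 UMIs in low-sum barcodes, 5 in remaining knockout barcodes and 0 in control barcodes, and the control-high list had medians of 1, 1 and 13 in the same order. Barcodes were placed in the control range when they had at most 1 knockout-high UMI (the control 95th percentile) and at least 1 control-high UMI (the control 5th percentile). This range held 179 low-sum barcodes (16.3%, 14.2 to 18.7), 109 remaining knockout barcodes (6.63%) and 4331 control barcodes (96.0%). Of the 179, 6 were rich in B and plasma cell markers and were left out, which gave a subset of 173 barcodes. Both bounds lie at 1 UMI, so a change of 1 UMI moves many barcodes across them. At a control-high score of 13 or more, the control median, 17 low-sum barcodes were in range (1.55%), and 15 of them without those rich in B and plasma cell markers.

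**Figure D4:**
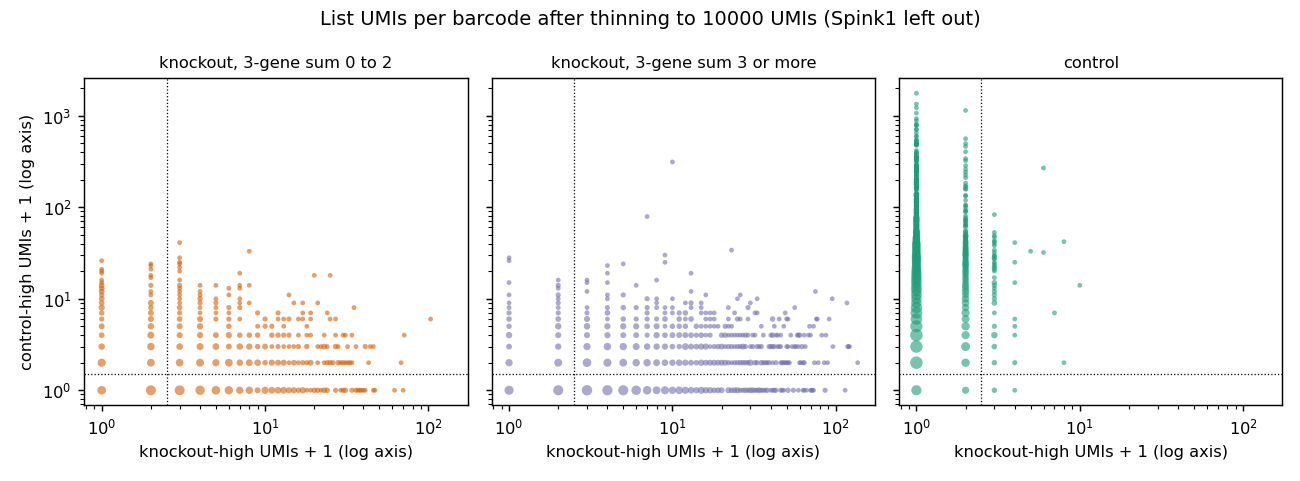
UMIs of the knockout-high list without Spink1 plus 1 (x axis, log scale) against UMIs of the control-high list plus 1 (y axis, log scale) per barcode after thinning to 10000 UMIs; point area grows with the number of barcodes at that position, and dotted lines bound the control range at upper left. That corner holds 16.3% of low-sum barcodes, 6.63% of remaining knockout barcodes and 96.0% of control barcodes.

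The subset carried the knockout library's sex-linked pattern and an intermediate expression pattern. Xist was found in 168 of its 173 barcodes (97.1%, 93.4 to 99.1) and no Y-linked UMI was found. Over the 358 genes that were 2-fold apart between remaining knockout and control barcodes and in neither list, its median place was 0.60, against 0.92 for the other 915 low-sum barcodes. Of the 358 genes, 46 had a place under 0.25 in the subset (12.8%), 213 lay between 0.25 and 0.75, and 99 were over 0.75 (27.7%). The remaining knockout barcodes in the same range, 108 without those rich in B and plasma cell markers, had a median place of 0.89. The 15 barcodes with a control-high score at the control median or more had a median place of 0.21, and 189 of the 358 genes had a place under 0.25. Low-sum barcodes with a 3-gene sum of 0 differed by the same division: the 106 in the subset had a median place of 0.50 and the 311 outside it had 0.80. The subset was chosen on genes of these same cells, so its place is a description and supports nothing.

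The stem cell genes Lgr5 and Smoc2 were higher in the subset than in the other low-sum barcodes. Lgr5, the receptor that marks crypt base stem cells, had 16 UMIs in low-sum barcodes, of which 14 were in the 173 subset barcodes (3.31 CPM, 1.81 to 5.55) and 2 in the other 915 (0.106 CPM, 0.0128 to 0.381). It was at 0.0461 CPM in remaining knockout barcodes and 3.25 CPM in control barcodes. Smoc2, another crypt base gene, was at 16.1 CPM (12.5 to 20.4) in the subset, 3.27 CPM in other low-sum barcodes, 3.04 CPM in remaining knockout barcodes and 10.7 CPM in control barcodes. In the 108 remaining knockout barcodes of the same range, Smoc2 was at 14.9 CPM (interval 11 to 19.8), close to its level in the subset, and Lgr5 had 1 UMI. Ascl2, a stem cell transcription factor, was at 16.8 CPM in the subset, 22.01 CPM in other low-sum barcodes, 19.5 CPM in remaining knockout barcodes and 10.7 CPM in control barcodes, so it did not follow that order. Lgr5, Smoc2 and Ascl2 were named from 14 stem cell genes after their values were seen.

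Among the genes of neither list with a low place in the subset were Clu, Ccl20 and Serpinb1a, named after their values were seen. Clu was at 4.02 CPM in the subset, 17.8 CPM in other low-sum barcodes, 50.9 CPM in remaining knockout barcodes and 3.07 CPM in control barcodes. Ccl20 was at 25.3 CPM in the subset, 419 CPM in remaining knockout barcodes and 25.3 CPM in control barcodes. Serpinb1a, an inhibitor of neutrophil proteases, was at 299 CPM in the subset, 1411 CPM in remaining knockout barcodes and 315 CPM in control barcodes.

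The interferon, MHC class I and immediate-early lists did not move with these genes. In the subset, 20 of 24 interferon-stimulated genes had a place over 0.75 and none was under 0.25, although Isg15 belongs to the control-high list used to choose the subset. Irf7 was at 15.6 CPM in the subset, 24.6 CPM in other low-sum barcodes, 19.7 CPM in remaining knockout barcodes and 104 CPM in control barcodes. Ifi27 was at 14.7 CPM in the subset, 27.1 CPM in remaining knockout barcodes and 127 CPM in control barcodes. H2-K1 was at 254 CPM in the subset, 295 CPM in other low-sum barcodes, 314 CPM in remaining knockout barcodes and 901 CPM in control barcodes. All 8 class I genes with a place had one over 0.75, as had 7 of 9 immediate-early genes. Of the class I genes, Psmb8 and Psmb9 also belong to the control-high list used to choose the subset. Both were higher in the subset than in remaining knockout barcodes, but nearer to that level than to control. Psmb8 was at 31.69 CPM in the subset, 23.35 CPM in remaining knockout barcodes and 211.7 CPM in control barcodes. Psmb9 was at 21.05 CPM in the subset, 13.2 CPM in remaining knockout barcodes and 110.4 CPM in control barcodes. The metallothionein gene Mt2 likewise stayed at 329 CPM in the subset, beside 358 CPM in remaining knockout barcodes and 21.3 CPM in control barcodes. Other genes went beyond both groups: Reg3b, an antibacterial lectin, was at 7872 CPM in the subset, 2282 CPM in other low-sum barcodes, 2619 CPM in remaining knockout barcodes and 1768 CPM in control barcodes. Of 2636 genes of neither list, 56 were higher (2.12%) and 137 lower (5.20%) by 2-fold or more in the subset than in control. For the other low-sum barcodes against control, 151 of 2700 genes were higher (5.59%) and 152 lower (5.63%). For the 108 remaining knockout barcodes of the same range against control, 123 of 2679 genes were higher (4.59%) and 198 lower (7.39%).

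**Figure D5:**
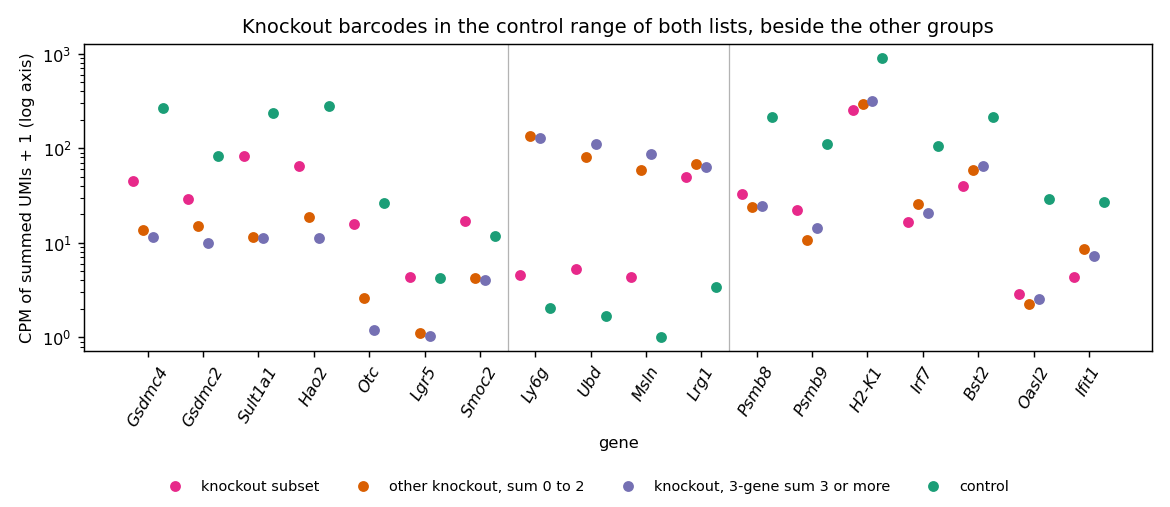
CPM of summed UMIs plus 1 (y axis, log scale) of 18 genes (x axis) in the 173 subset barcodes (pink), the other 915 low-sum barcodes (orange), remaining knockout barcodes (purple) and control barcodes (green). Control-high and stem cell genes are at left, knockout-high genes in the middle, and MHC class I and interferon genes at right. At right the pink points stand nearer to the orange and purple ones than to the green ones, as for Irf7 (15.6, 24.6 and 19.7 CPM, against 104 CPM in control).

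Without the subset and the barcodes rich in B and plasma cell markers, the other 915 low-sum barcodes still differed from the remaining knockout barcodes at a few genes. Of 2461 genes, 8 were higher (0.325%) and 6 lower (0.244%) by 2-fold or more. Of the 10 higher genes of all low-sum barcodes 7 were among them, and of the 11 lower genes 6 were. Car1 was higher by 1.36 on the log2 scale and Sval1 lower, at -2.49, whereas Mgst1 was at 0.57 and Fabp5 at -0.94, under 2-fold.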

How the data were processed

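The authors deposited raw UMI counts for each gene in each barcode. Their processing notes list Cell Ranger 3.0.0 and Seurat 3, whereas the file headers give a Cell Ranger version of 3.1.0. No source used here states the genome build or which end of transcripts was counted. Library totals were 89729527 UMIs over 9225 barcodes for Mettl14_cKO and 111239295 over 10181 for control.

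Groups follow the rule in the text. Counts were summed per group and scaled to CPM. Differences are log2 ratios of CPM, each plus 1, with no test. Genes used by the rule, sex-linked genes (Tsix, Xist and the Y chromosome), ribosomal and mitochondrial genes, those of haemoglobins and antigen receptors, and genes over 5 times higher in immune barcodes (Ptprc without Epcam) were not compared across all genes. Named were the 12 highest and 12 lowest genes of each comparison, the knockout-high, control-high and gasdermin C lists, Mettl14 and up to 4 genes of each other list; genes of the subset, of the marker ranges and others outside that rule were named after their values were seen. The members and lists were chosen with earlier results of these data known.

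Scores used each barcode thinned to 10000 UMIs (random seed 1). Doublets were scored with Scrublet in scanpy 1.11.5 and not removed; leaving out scores of 0.25 or more was an alternative. The place measure was tested on simulated data. The alternatives changed depth, gene filters, the 3-gene threshold and the barcodes kept. Scripts ran on numpy 2.4.6, pandas 2.3.3, scipy 1.17.1 and matplotlib 3.10.9 under Python 3.11.15.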

Additional observations from a re-analysis of the deposited data

How the results depend on the processing

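The count of low-sum barcodes was 1733 at a minimum of 5000 UMIs, 465 at 20000 and 422 for a 3-gene sum of 0. The share with a Xist UMI was 94.0% at 5000 UMIs and 97.8% at 20000. A sum of 0 gave 42 genes past 2-fold against remaining knockout barcodes, a median place of 0.72 and a median knockout-high score of 5 UMIs (8 in all low-sum barcodes). That score was 10 at a minimum of 5000 UMIs and 10 when the 3 genes were summed after thinning, an alternative added after seeing the data. A gene filter of 10 CPM gave 56 genes past 2-fold against remaining knockout barcodes and 711 against control, with more genes compared. The count in the control range of both lists was 352 with Spink1 in the list and 15 with the control-high score at the control median. Over all alternatives the median place lay between 0.72 and 0.91. Directions of single genes against remaining knockout barcodes were recomputed without barcodes rich in B and plasma cell markers, and also without the subset, as given above. They were not given for the other alternatives. Without barcodes rich in B and plasma cell markers Jchain was at -0.15 (log2) against remaining knockout barcodes, and at 1.66 with them. Leaving out barcodes rich in B and plasma cell markers, also chosen after seeing the data, gave 1088 barcodes and a median place of 0.86. No paired analysis was possible because there was 1 library per genotype and no test. Depth limits genes with few UMIs, such as Lgr5 with 16 in all low-sum barcodes.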
